A study of Homo sapiens with 6 samples.

Results

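The TRIM (tripartite motif) genes encode proteins built from a RING finger, B-box zinc fingers and a coiled coil, followed by a domain that differs between subfamilies. They were taken as the protein-coding genes of the count table whose symbol is TRIM, a number and at most a letter, which gave 73 of 58735 genes. The symbols alone decided which genes belong, but the family was picked with earlier results of these data known. The 6 libraries came from the human line 786-O, established from a renal cell carcinoma. In 3 of them (sh-CBX7) a short hairpin targeted CBX7, which encodes a chromobox protein of Polycomb repressive complexes, and the other 3 carried a control hairpin (sh-Control). The groups share the line and differ in the hairpin, and the labels name no other agent, time or genotype. The sources used here do not say how many hairpin sequences or clones were used, or whether each library stands for its own culture. The p-values therefore measure only the spread between these libraries, which may be technical.

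The RING finger of most TRIM proteins passes ubiquitin from an E2 enzyme to a substrate, which marks the substrate for degradation or changes its activity. Many members with a C-terminal PRY-SPRY domain restrict viruses or regulate innate immune signalling, and the genes of several of them are induced by interferon. Others act in the nucleus as transcription cofactors, on microtubules, at the centrosome or in muscle.

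Libraries held 16473407 to 18868874 counts in sh-CBX7 and 16384151 to 18006814 in sh-Control. Values between libraries are given as CPM, counts scaled to a common library size after TMM normalisation. CBX7 itself averaged 7.44 ± 0.669 CPM in sh-CBX7 and 12.2 ± 0.983 CPM in sh-Control (SD, n = 3 each), and was lower in sh-CBX7 (log2 fold change -0.71, SE 0.13, edgeR adjusted p = 5.41e-05). RNF26, the other gene of the series title, was lower too (log2 fold change -0.88). Of the 10 markers listed for a renal carcinoma line, 9 passed the low count filter, and NDUFA4L2 had at most 2 counts in any library. Of these 9, 3 were higher and 4 lower in sh-CBX7, against 26.1% and 27.2% of all tested genes. Their log2 fold changes ran from -1.22 (CA12) to 0.81 (MME). Among the markers of other cell types, PTPRC and CD3E (immune) and CDH5 (endothelial) were at 0 counts in all libraries. The 7 immune markers summed to 1.01 to 2.09 CPM in sh-CBX7 and 1.32 to 2.1 CPM in sh-Control, the 4 endothelial markers to 3.86 to 5.04 CPM in sh-CBX7 and 2.22 to 3.13 CPM in sh-Control, and the 5 fibroblast markers to 11 to 12.7 CPM in sh-CBX7 and 10 to 11.7 CPM in sh-Control. Single markers among these were called in either direction, with PECAM1 (0.70, adjusted p = 0.0349 in edgeR) and LUM (0.73, adjusted p = 0.00029) higher and COL1A1 (-1.03, adjusted p = 0.000956) lower in sh-CBX7. The part of these markers in the TRIM values was not tested. In bulk libraries, fewer cells with a transcript and less of it per cell cannot be told apart.

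As a family, the TRIM genes were called about as often as other genes. Of the 73 genes 41 passed the low count filter, and of these 12 were higher in sh-CBX7 (29.3%, against 26.1% of all 14573 tested genes) and 10 were lower (24.4%, against 27.2%). A gene was called where edgeR's quasi-likelihood test gave a Benjamini-Hochberg adjusted p below 0.05 over all tested genes, which held for 53.7% of the TRIM genes and 53.3% of all genes in either direction. With upper quartile scaling the TRIM split was 14 higher and 7 lower, and that of all tested genes 4312 higher and 3521 lower. The median log2 fold change was 0.165 over the tested TRIM genes and -0.00595 over all tested genes, and the TRIM median was 0.0776 without sh-CBX7 replicate 1. The median size of the change, whatever its sign, was 0.263 on the log2 scale, against 0.33 for all tested genes. Of the 22 called members 9 differed by at least 1.5-fold, and 3, TRIM55, TRIM22 and TRIM21, were higher by at least 1 on the log2 scale (7.32%, against 5.23% of all tested genes). No member was lower by that much, against 3.3% of all tested genes. The libraries of the groups did not overlap for 28 of 41 members (68.3%), against 59.0% of all tested genes.

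**Figure D1:**
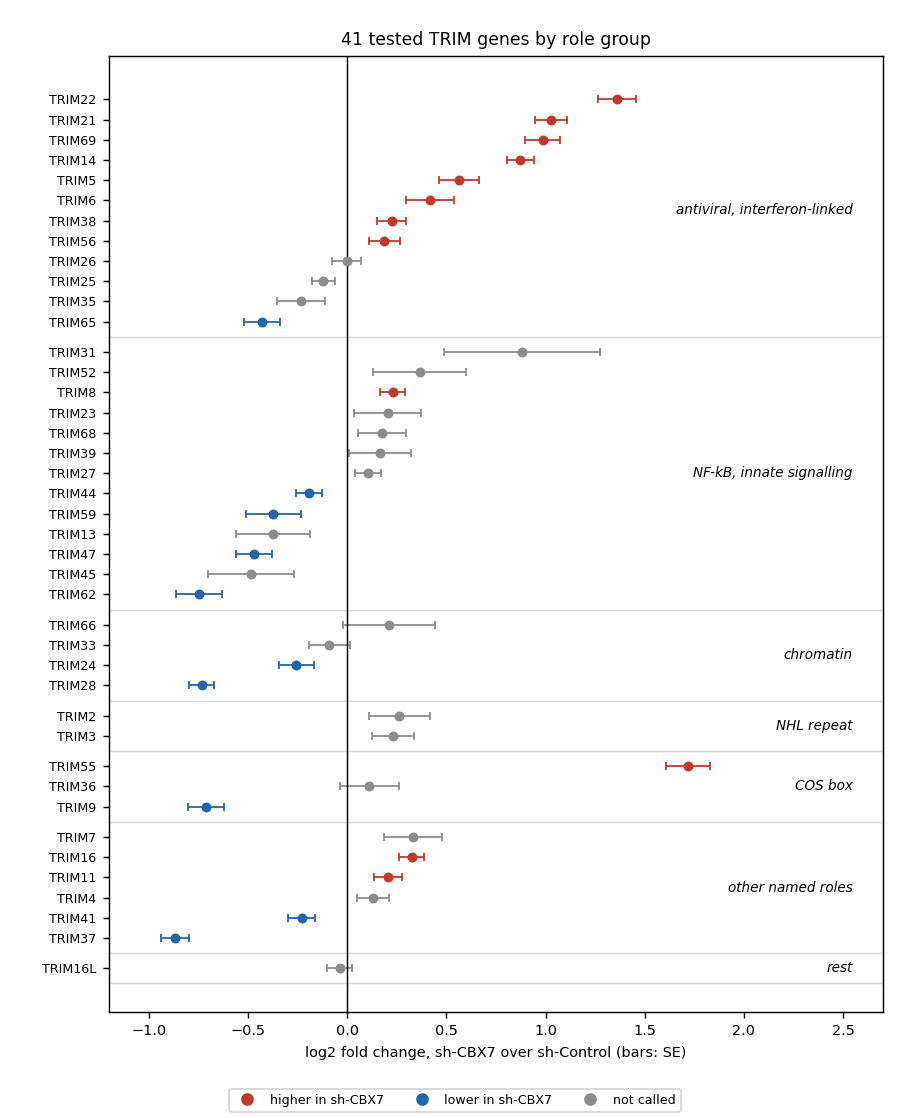
Log2 fold change, sh-CBX7 over sh-Control, on the horizontal axis for the 41 tested TRIM genes, listed by role group. Points are edgeR estimates with bars of 1 SE, coloured by call; TRIM55, at 1.72, lies farthest to the right and TRIM37, at -0.87, farthest to the left.

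**Figure D2:**
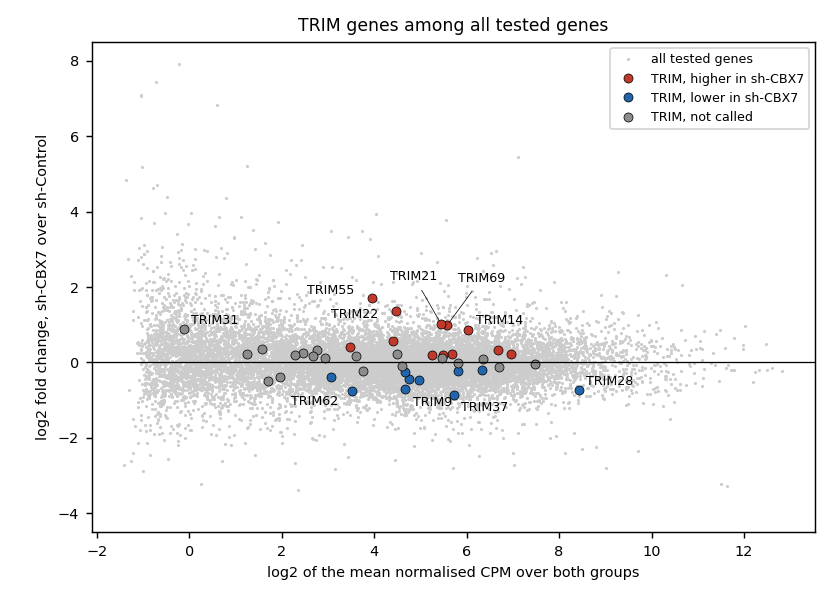
Log2 fold change, sh-CBX7 over sh-Control, against log2 of the mean normalised CPM over both groups, with all 14573 tested genes in grey and the 41 tested TRIM genes coloured by call. The TRIM genes lie within the range of the other genes, between -0.87 and 1.72 on the vertical axis.

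The promoters of the members were compared because several antiviral members moved together. RefSeq promoters of GRCh38.p14, from 250 bases before a gene's start to 50 after it, were matched by symbol for 56 of the 73 members. Those without an entry were TRIM4, TRIM8, TRIM11, TRIM13, TRIM16L, TRIM22, TRIM24, TRIM27, TRIM28, TRIM29, TRIM35, TRIM43, TRIM43B, TRIM45, TRIM55, TRIM60 and TRIM75P. The 56 promoters were searched on both strands for the core of the interferon-stimulated response element, spelled GAAA, any 2 bases, then GAAA. It was present in 5 of 8 promoters of members that rose in sh-CBX7 (TRIM5, TRIM14, TRIM16, TRIM21 and TRIM69), in 1 of 8 of members that fell (TRIM44), in 2 of 13 of members not called (TRIM2 and TRIM26) and in 2 of 27 of members not tested (TRIM34 and TRIM64C). Of all 35116 promoters of this length 3.57% held it, and of the 56 TRIM promoters 10 did (17.9%). The first listed promoter was taken for each member, whereas the 35116 were all listed promoters, so these shares were not counted alike. The RefSeq start can lie within a gene, as in TRIM69, which is annotated to begin at GRCh38 chr15:44728988. A match describes letters only, and no match says only that the letters are not in this window. The stretches from 120 bases before the RefSeq start to 30 after it are printed 5′ to 3′ on the gene's strand, with the first match in capitals, for 4 antiviral members that rose and hold the letters and for 2 of the members that fell furthest and do not:
TRIM21: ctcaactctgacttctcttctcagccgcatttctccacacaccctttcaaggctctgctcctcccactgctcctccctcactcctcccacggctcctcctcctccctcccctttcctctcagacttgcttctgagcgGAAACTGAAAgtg
TRIM14: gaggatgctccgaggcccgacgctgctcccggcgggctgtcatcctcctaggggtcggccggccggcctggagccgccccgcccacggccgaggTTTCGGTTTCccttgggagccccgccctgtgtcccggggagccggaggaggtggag
TRIM5: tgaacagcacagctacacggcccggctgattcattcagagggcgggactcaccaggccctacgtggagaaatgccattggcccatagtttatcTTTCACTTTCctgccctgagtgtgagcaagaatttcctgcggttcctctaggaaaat
TRIM69: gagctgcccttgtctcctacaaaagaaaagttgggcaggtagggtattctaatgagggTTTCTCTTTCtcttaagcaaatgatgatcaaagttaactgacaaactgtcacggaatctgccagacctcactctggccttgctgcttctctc
TRIM37: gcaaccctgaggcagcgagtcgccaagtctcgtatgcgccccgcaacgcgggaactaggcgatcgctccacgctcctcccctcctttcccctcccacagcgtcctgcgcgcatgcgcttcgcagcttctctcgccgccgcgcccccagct
TRIM62: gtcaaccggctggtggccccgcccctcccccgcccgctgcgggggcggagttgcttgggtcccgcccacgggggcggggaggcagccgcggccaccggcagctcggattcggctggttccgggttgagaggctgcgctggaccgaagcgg
They lie at chr11:4393673-4393822 (TRIM21, minus strand), chr9:98119193-98119342 (TRIM14, minus strand), chr11:5685045-5685194 (TRIM5, minus strand), chr15:44736408-44736557 (TRIM69, plus strand), chr17:59106851-59107000 (TRIM37, minus strand) and chr1:33182014-33182163 (TRIM62, minus strand). The match began 26 bases before the start in TRIM14, 27 before it in TRIM5 and 62 before it in TRIM69, each on the strand opposite to the gene. TRIM21 held 2 overlapping matches on its own strand, from bases 18 and 24 after the start, and the printed stretch ends within the second. TRIM6, TRIM38, TRIM56 and TRIM65 of the antiviral group were called without the letters in this window. The printed stretches were chosen by call and by match, so the contrast between them was set by that choice. TRIM44, which fell, holds the letters from 35 bases before the start and is not printed. TRIM26 of the antiviral group holds them and was not called. Whether the letters bear on the calls was not tested.

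The antiviral and interferon-linked members were mostly higher in sh-CBX7. Of 12 tested, 8 rose (66.7%), 1 fell and 3 were not called, with a median log2 fold change of 0.321. Among all tested genes 26.1% were higher and 27.2% lower, with a median of -0.00595. Of the 29 other tested TRIM genes, 4 rose (13.8%) and 9 fell (31.0%), with a median of 0.112. The group was assembled knowing that interferon response genes are higher in these libraries, so its count is not independent evidence of a direction. Leaving out a library left 6 to 7 members higher.

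TRIM22 (ENSG00000132274; GRCh38 chr11:5689689-5737089, plus strand) encodes an interferon-induced restriction factor. It had 31.5, 33.3 and 30.7 CPM in sh-CBX7 and 12.2, 13.0 and 11.9 CPM in sh-Control. Every sh-CBX7 library lay above every sh-Control library (log2 fold change 1.36, SE 0.10, edgeR adjusted p = 6.81e-11). TRIM21 (ENSG00000132109; GRCh38 chr11:4384897-4393696, minus strand) encodes a cytosolic antibody receptor that directs antibody-coated virus particles to degradation, and had 55.7, 62.3 and 57.6 CPM in sh-CBX7 and 31.7, 28.3 and 26.1 CPM in sh-Control. The groups were again separate (log2 fold change 1.03, SE 0.081, edgeR adjusted p = 3.59e-10). TRIM14 (ENSG00000106785; GRCh38 chr9:98069275-98119212, minus strand), an adaptor of antiviral signalling at mitochondria that has no RING finger, had 87.9, 87.4 and 80.0 CPM in sh-CBX7 and 46.4, 45.3 and 47.7 CPM in sh-Control. Its groups did not overlap either (log2 fold change 0.87, SE 0.067, edgeR adjusted p = 2.16e-10).

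TRIM69 rose as well, at 63.4 ± 7.02 CPM in sh-CBX7 and 32.0 ± 3.19 CPM in sh-Control (SD, n = 3 each; log2 fold change 0.99, edgeR adjusted p = 2.69e-09). TRIM5, whose protein binds the capsids of incoming retroviruses, averaged 25.2 ± 2.13 CPM in sh-CBX7 and 17.1 ± 1.09 CPM in sh-Control (0.57, adjusted p = 5.62e-05). TRIM6 (0.42, adjusted p = 0.00567), TRIM38 (0.22, adjusted p = 0.0119) and TRIM56 (0.19, adjusted p = 0.0442) rose by less. The call of TRIM38 rested on particular libraries, and that of TRIM56 lay close to the threshold and was lost under 7 of 14 other settings. TRIM38 had an adjusted p of 0.0677 without sh-CBX7 replicate 1 and of 0.107 without sh-Control replicate 3. TRIM56 had an adjusted p of 0.118 and 0.179 without sh-CBX7 replicates 2 and 3, of 0.0586, 0.12 and 0.0568 without sh-Control replicates 1, 2 and 3, of 0.096 in DESeq2 and of 0.104 in edgeR without a low count filter.

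TRIM65, a ligase for the RNA sensor MDA5, was the member of this group that fell, with 23.0 ± 0.551 CPM in sh-CBX7 and 31.0 ± 2.61 CPM in sh-Control (SD, n = 3 each; log2 fold change -0.43, edgeR adjusted p = 0.000366). TRIM25, which ubiquitinates the RNA sensor RIG-I, averaged 99.98 ± 2.45 CPM in sh-CBX7 and 109 ± 1.58 CPM in sh-Control and was not called (-0.12, adjusted p = 0.0923), but was called without sh-Control replicate 1 (-0.13, adjusted p = 0.0451). TRIM26 (log2 fold change -0.0030) and TRIM35 (-0.23, adjusted p = 0.118) were not called. TRIM58 had no counts, and TRIM34 had 1 to 8 counts in sh-CBX7 libraries and 0 to 5 in sh-Control libraries.

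Of 11 tested genes of the RIG-I pathway around TRIM25, 6 rose, 1 fell and 4 were not called, against 26.1% higher and 27.2% lower among all tested genes. DDX58, which encodes RIG-I, averaged 109.8 ± 5.11 CPM in sh-CBX7 and 29.4 ± 2.23 CPM in sh-Control (SD, n = 3 each; log2 fold change 1.90). IFIH1, which encodes MDA5 (1.495), the interferon regulatory factor IRF7 (2.37) and the kinase IKBKE (1.02) rose as well, with an edgeR adjusted p of at most 6.23e-11. Of 28 interferon response genes, none of them a TRIM gene, 25 rose, with a median log2 fold change of 1.52. The antiviral TRIM genes that rose did so by less than the median of that list, and whether the 2 sets share a cause was not tested.

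Of 13 tested TRIM genes that act on NF-kB and innate signalling, 1 rose, 4 fell and 8 were not called (all tested genes 26.1% higher and 27.2% lower), with a median log2 fold change of 0.104. TRIM62, a RING ligase of the PRY-SPRY class that acts on the adaptor CARD9, had 8.17, 8.82 and 8.86 CPM in sh-CBX7 and 13.6, 15.1 and 14.7 CPM in sh-Control. The groups did not overlap (log2 fold change -0.75, SE 0.12, edgeR adjusted p = 1.07e-05). TRIM47 had 28.4, 25.4 and 25.1 CPM in sh-CBX7 and 39.4, 32.3 and 37.9 CPM in sh-Control, again with no overlap (log2 fold change -0.47, SE 0.091, edgeR adjusted p = 0.000141). An antisense gene, AC087289.5, covers 51.5% of the exonic bases of TRIM47 and had 4 to 10 counts in sh-CBX7 libraries and 6 to 9 in sh-Control libraries. TRIM8, which promotes NF-kB signalling, was the member that rose, with 139.8, 128 and 138 CPM in sh-CBX7 and 126, 111 and 109.7 CPM in sh-Control (log2 fold change 0.23, SE 0.065, edgeR adjusted p = 0.00486).

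TRIM44 (-0.19, adjusted p = 0.0173 in edgeR), which has no RING finger, and TRIM59 (-0.37, adjusted p = 0.0272), a membrane protein of the endoplasmic reticulum, fell by less. Neither was called without sh-CBX7 replicate 3 (adjusted p = 0.0885 for TRIM44 and 0.143 for TRIM59), without sh-Control replicate 2 (0.0696 and 0.0872), without sh-Control replicate 3 (0.0664 and 0.085) or with upper quartile scaling (0.0733 and 0.0546). The number of lower members in this group was 2 in place of 4 without sh-CBX7 replicate 3 or sh-Control replicate 3. DESeq2 did not call TRIM59 either (adjusted p = 0.106). Other genes cover 34.3% of the exonic bases of TRIM59, among them SMC4, a condensin subunit gene that fell too (log2 fold change -0.58), and the part of shared reads was not tested.

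TRIM31 had the largest estimate among the members of this group that were not called, 0.88, and the largest error of all tested members (SE 0.39, edgeR adjusted p = 0.0639), at 1.20 ± 0.428 CPM in sh-CBX7 and 0.641 ± 0.114 CPM in sh-Control (SD, n = 3 each). TRIM13, TRIM23, TRIM27, TRIM39, TRIM45, TRIM52 and TRIM68 lay between -0.49 and 0.36 and were not called. TRIM27 (0.17, adjusted p = 0.0176) and TRIM13 (-0.47, adjusted p = 0.0487) were called without sh-Control replicate 1, and TRIM45 (-0.62, adjusted p = 0.0266) without sh-Control replicate 2. DLEU2, an antisense gene that overlaps TRIM13, had 27 to 30 counts in sh-CBX7 libraries and 68 to 113 in sh-Control libraries. TRIM29 and TRIM40 had too few counts to test.

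Of the chromatin cofactors, TRIM28 and TRIM24 were lower in sh-CBX7. TRIM28 (ENSG00000130726; GRCh38 chr19:58544091-58550722, plus strand), also known as KAP1, is the corepressor that KRAB zinc finger proteins recruit to silence retroelements. It had 5024, 4158 and 4586 counts in sh-CBX7 and 7900, 7169 and 6877 counts in sh-Control, which corresponded to 267, 251 and 259 CPM in sh-CBX7 and 475, 394 and 422 CPM in sh-Control. No sh-CBX7 library came near the lowest sh-Control library (log2 fold change -0.73, SE 0.062, edgeR adjusted p = 1.315e-09). TRIM24, a nuclear receptor cofactor with a bromodomain, had 22.2, 23.7 and 23.1 CPM in sh-CBX7 and 27.5, 27.2 and 27.8 CPM in sh-Control (log2 fold change -0.26, SE 0.088, edgeR adjusted p = 0.017). It was not called without sh-CBX7 replicate 1 (adjusted p = 0.0625), without sh-Control replicate 3 (0.0521) or with upper quartile scaling (0.0523), which left TRIM28 as the lower member. TRIM66, which has a bromodomain and no RING finger, had 2.60, 2.29 and 2.71 CPM in sh-CBX7 and 2.16, 2.20 and 2.21 CPM in sh-Control and was not called (0.21, adjusted p = 0.464). TRIM33, a regulator of SMAD signalling, was not called (-0.091, adjusted p = 0.482).

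Of 14 tested genes that work with TRIM28 in silencing, 1 rose, 2 fell and 11 were not called (of all tested genes 53.3% were called), with a median log2 fold change of -0.054. SETDB1, the histone H3 lysine methyltransferase that TRIM28 recruits (-0.44, adjusted p = 0.000984 in edgeR), and CBX5, which encodes the heterochromatin protein HP1 alpha (-0.42, adjusted p = 3.21e-05), fell. The histone deacetylase HDAC1 rose (0.22, adjusted p = 0.00195 in edgeR).

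The COS box members bind microtubules or, in muscle, sarcomeres, and held the largest change of the family. TRIM55 (ENSG00000147573; GRCh38 chr8:66126896-66175487, plus strand), known in muscle as MURF2, had 430, 405 and 418 counts in sh-CBX7 and 117, 139 and 111 counts in sh-Control, or 22.8, 24.5 and 23.6 CPM in sh-CBX7 and 7.03, 7.64 and 6.81 CPM in sh-Control. The groups were far apart (log2 fold change 1.72, SE 0.11, edgeR adjusted p = 1.35e-11), a 3.29-fold higher level. Its muscle relatives were barely detected, since TRIM63 had 0 counts in all libraries and TRIM54 had 1 to 6 counts in sh-CBX7 libraries and 2 to 6 in sh-Control libraries. TRIM9, a neuronal ligase of axon branching, had 20.8, 17.8 and 19.4 CPM in sh-CBX7 and 31.6, 32.1 and 31.5 CPM in sh-Control. All sh-CBX7 libraries lay below all sh-Control libraries (log2 fold change -0.71, SE 0.091, edgeR adjusted p = 7.53e-07). TRIM36 had 8.65, 7.43 and 7.62 CPM in sh-CBX7 and 5.83, 8.36 and 7.73 CPM in sh-Control, and its groups overlapped (0.11, adjusted p = 0.548). TRIM46 and TRIM67 had at most 12 counts in any library.

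Neither tested NHL repeat member was called by edgeR with TMM scaling and no block, by DESeq2 or by limma voom, and 1 of the 2 had an unadjusted edgeR p below 0.05. TRIM3, known from neurons, had 26.3, 23.7 and 22.8 CPM in sh-CBX7 and 20.5, 18.0 and 23.7 CPM in sh-Control, so that the groups overlapped (0.23, adjusted p = 0.0744). It was called without sh-Control replicate 3 (0.33, adjusted p = 0.0219) and with upper quartile scaling (0.28, adjusted p = 0.0304). TRIM2 had 6.31, 6.28 and 5.53 CPM in sh-CBX7 and 4.81, 4.73 and 5.58 CPM in sh-Control, also with overlap (0.26, adjusted p = 0.162). TRIM71, a stem cell protein, had 1 count in 1 library, and TRIM32 had none.

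Among members with other roles, TRIM37 showed the largest fall of the family. TRIM37 (ENSG00000108395; GRCh38 chr17:58982638-59106921, minus strand) encodes a ligase that limits the assembly of centrosomal proteins away from centrosomes. It had 36.5, 38.6 and 37.6 CPM in sh-CBX7 and 66.0, 73.3 and 65.9 CPM in sh-Control. The groups lay far apart (log2 fold change -0.87, SE 0.071, edgeR adjusted p = 6.94e-10). TRIM41 had 49.9, 49.8 and 55.2 CPM in sh-CBX7 and 61.8, 57.8 and 62.2 CPM in sh-Control, with no overlap (log2 fold change -0.23, SE 0.069, edgeR adjusted p = 0.00762). TRIM16, which takes part in the autophagy of damaged endomembranes, rose, with 109, 113 and 120.3 CPM in sh-CBX7 and 96.0, 84.6 and 93.2 CPM in sh-Control (log2 fold change 0.32, SE 0.065, edgeR adjusted p = 0.000214).

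TRIM16L, a shorter copy of TRIM16, was not called and had 185, 173 and 173 CPM in sh-CBX7 and 199, 172 and 174 CPM in sh-Control (-0.038, adjusted p = 0.633). Of the 50-base stretches of TRIM16 transcripts 42.0% occur in transcripts of other genes, and of those of TRIM16L 42.6%, so the counts of this pair are uncertain. TRIM11 rose (0.21, adjusted p = 0.0182 in edgeR), but was not called without sh-CBX7 replicate 3 (adjusted p = 0.0878), sh-Control replicate 2 (0.0661) or sh-Control replicate 3 (0.0743), each of which left TRIM16 as the higher member of the group. TRIM4 (0.13, adjusted p = 0.176) and TRIM7 (0.33, adjusted p = 0.0638) were not called, while TRIM7 was called without sh-Control replicate 1 (0.41, adjusted p = 0.0348) and with upper quartile scaling (0.38, adjusted p = 0.0339).

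**Figure D3:**
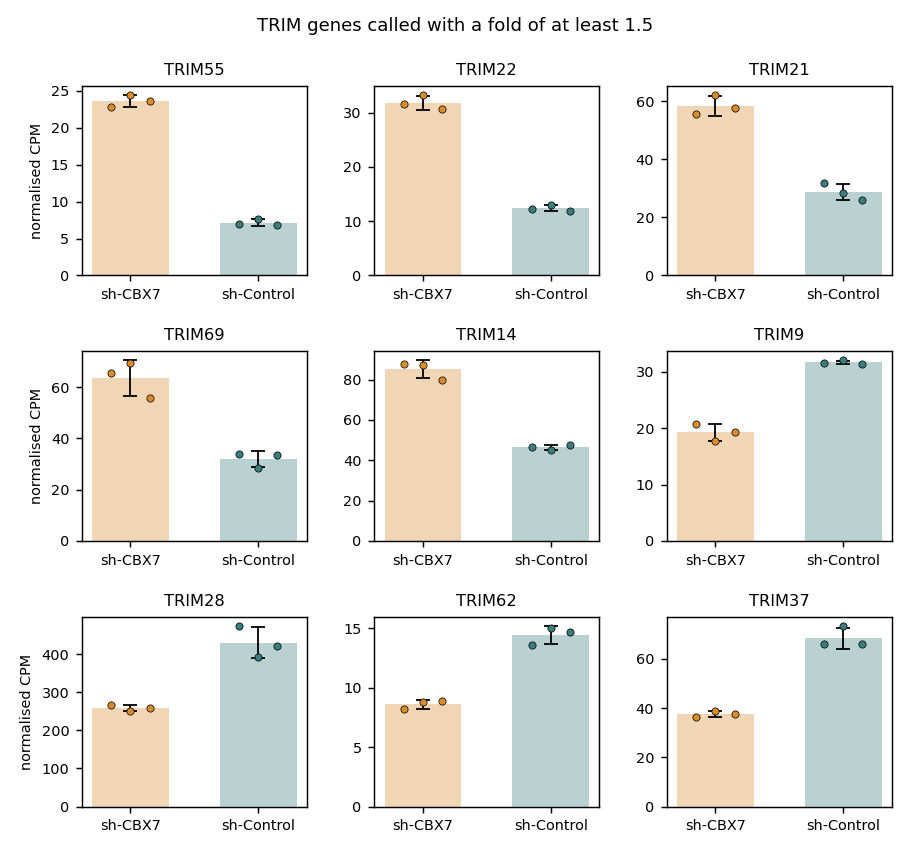
Normalised CPM of the 9 called TRIM genes that differed by at least 1.5-fold, with sh-CBX7 left of sh-Control in each panel; bars are means, error bars the SD of 3 libraries and points the libraries. TRIM55, TRIM22, TRIM21, TRIM69 and TRIM14 are higher in sh-CBX7, TRIM9, TRIM28, TRIM62 and TRIM37 are lower, and the libraries of the groups overlap in no panel.

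Levels were compared between genes only per length, as TPM, computed from the counts and the exonic lengths in the table. TRIM28 had the highest level in both groups, 199 ± 5.90 TPM in sh-CBX7 and 333 ± 25.4 TPM in sh-Control (SD, n = 3 each). TRIM16L followed, with 127 ± 5.05 TPM in sh-CBX7 and 131 ± 8.62 TPM in sh-Control. TRIM21 had 94.1 ± 5.63 TPM in sh-CBX7 and 46.5 ± 4.18 TPM in sh-Control, and TRIM16 had 62.9 ± 2.86 TPM in sh-CBX7 and 50.6 ± 2.30 TPM in sh-Control. In level, TRIM21 lay above TRIM16 in sh-CBX7, whereas in sh-Control their means differed by less than the sum of their SDs. TRIM8, TRIM26, TRIM14, TRIM25, TRIM27 and TRIM47 completed the 10 highest by the mean over both groups, at 26.0 to 48.3 TPM in sh-CBX7 and 26.6 to 40.0 TPM in sh-Control. Of these 6, TRIM14 had the highest mean in sh-CBX7 and the lowest in sh-Control. All members together took 0.179% to 0.184% of the counts in sh-CBX7 libraries and 0.182% to 0.191% in sh-Control libraries.

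**Figure D4:**
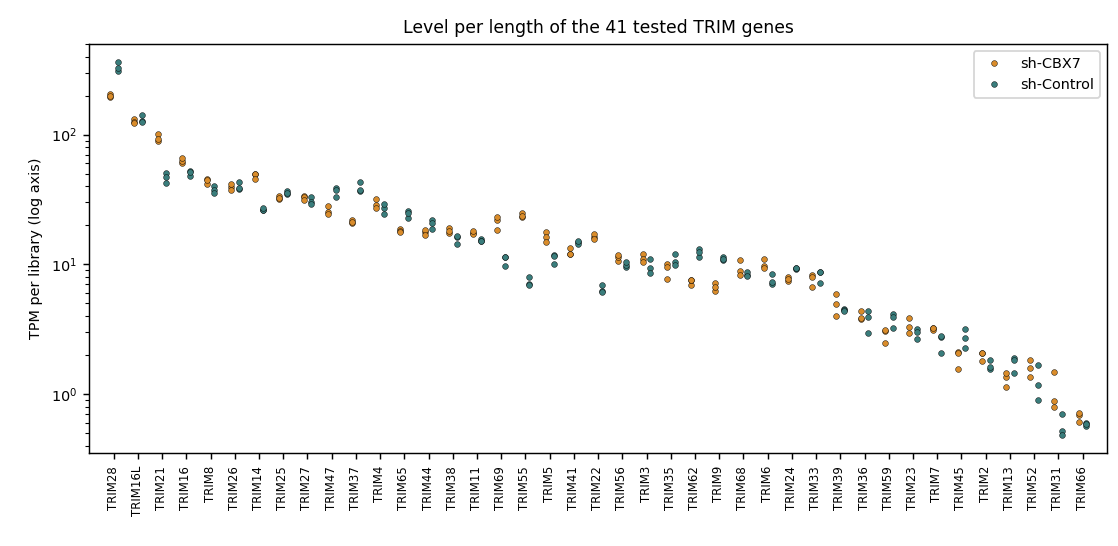
Level per length in TPM, on a log axis, of the 41 tested TRIM genes in order of their mean over both groups; each point is a library, with sh-CBX7 left of sh-Control for each gene. TRIM28 stands highest, at means of 199 TPM in sh-CBX7 and 333 TPM in sh-Control, and TRIM66 is last, with a mean of 0.626 TPM over both groups.

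The other 32 members were not tested. Of these, 19 had 0 counts in all 6 libraries, which allows up to 3 counts a library, or 0.159 to 0.183 CPM, a limit that covers counting error only. They were TRIM63, TRIM58, TRIM43B, TRIM43, TRIM61, TRIM60, TRIM75P, TRIM10, TRIM15, TRIM32, TRIM49B, TRIM64C, TRIM48, TRIM51, TRIM77, TRIM49, TRIM64, TRIM49C and TRIM72. The other 13, TRIM67, TRIM73, TRIM46, TRIM74, TRIM54, TRIM34, TRIM17, TRIM29, TRIM71, TRIM42, TRIM40, TRIM50 and TRIM64B, had at most 47 counts over all libraries, against at least 96 for the members tested. Many of the members at or near 0 are close copies of each other, and 91.7% of the 50-base stretches of TRIM74, 84.7% of those of TRIM64 and 83.8% of those of TRIM49 occur in other genes. The share of reads lost to such copies was not tested. Among the tested members, 10 share at least 10% of their exonic bases with another gene. The read-through genes TRIM6-TRIM34 and TRIM39-RPP21, which overlap TRIM6, TRIM34 and TRIM39, had 0 counts. Other genes cover 29.3% of the exonic bases of TRIM6, 83.0% of those of TRIM34 and 41.7% of those of TRIM39. How reads in shared bases were assigned was not tested, so these counts are uncertain.

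By position, 7 members lie together on chromosome 11 (GRCh38 chr11:4384897-6474459), namely TRIM21, TRIM68, TRIM6, TRIM34, TRIM5, TRIM22 and TRIM3. Of the 6 tested there, TRIM21, TRIM6, TRIM5 and TRIM22 rose, and TRIM68 (0.18, adjusted p = 0.23 in edgeR) and TRIM3 were not called. Among all tested genes 26.1% were higher and 27.2% lower. The members that rose here all belong to the antiviral group counted above, so their position is not a separate result. In the cluster at chr6:30102897-30343729, TRIM31, TRIM26 and TRIM39 were tested. None of these 3 was called in edgeR, in DESeq2 or in limma voom, nor under the other settings that gave them a value (14 for TRIM26 and TRIM39, 13 for TRIM31), and 1 of the 3 had an unadjusted edgeR p below 0.05. TRIM47 and TRIM65, which lie 1759 bases apart on the minus strand of chromosome 17, both fell. In the cluster at chr5:181193924-181261139, TRIM41 fell and TRIM7 and TRIM52 were not called.

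TRIM proteins with other symbols moved in both directions. Of 5 tested, 3 rose and 2 fell, where 26.1% of all tested genes were higher and 27.2% lower. TRIML2 averaged 14.1 ± 0.708 CPM in sh-CBX7 and 6.25 ± 1.02 CPM in sh-Control (SD, n = 3 each; log2 fold change 1.17, edgeR adjusted p = 1.24e-07). MEFV, which encodes the inflammasome protein pyrin, also rose (1.54, adjusted p = 0.0026), at the low levels of 1.27 ± 0.132 CPM in sh-CBX7 and 0.429 ± 0.111 CPM in sh-Control. The microtubule-binding COS box genes MID1 (-0.60, adjusted p = 5.23e-06) and MID2 (-0.91, adjusted p = 7.40e-06) fell. Of 14 listed E2 enzymes, 5 rose and 2 fell, against 26.1% and 27.2% of all tested genes. UBE2L6, the E2 of the ubiquitin-like modifier ISG15, averaged 393 ± 12.6 CPM in sh-CBX7 and 130.3 ± 2.71 CPM in sh-Control (SD, n = 3 each; log2 fold change 1.59, edgeR adjusted p = 2.73e-16). UBE2E2 (0.50, adjusted p = 5.51e-07) and UBE2D2 (0.28, adjusted p = 0.000234) rose by less, and UBE2L3 fell (-0.25, adjusted p = 0.00091).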

How the data were processed

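Poly-A RNA of 3 sh-CBX7 and 3 sh-Control libraries of 786-O cells was sequenced from directional libraries, per the labels' protocols. The authors deposited whole-number counts per gene without normalization, with an exonic length per gene. FastQC, Trimmomatic, HISAT2 2.0.5, featureCounts 1.5.0-p3 and the build hg19 are named in the submitters' processing notes, without their order or the strand setting of the counting, so reads of overlapping and antisense genes cannot be told apart. Positions are given on GRCh38, because 58724 of 58735 genes (99.98%) have their GENCODE 29 start and end in the table. Its columns say siCBX7 where the labels say sh-CBX7, and columns were matched by target and replicate number.

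Counts were filtered with filterByExpr, normalised by TMM and tested with edgeR 4.0.16 (R 4.3.3; quasi-likelihood test, sh-CBX7 over sh-Control, Benjamini-Hochberg adjustment over 14573 genes, called below 0.05), and the scripts were tested on simulated data. TPM were computed from counts and lengths. Alternatives were other scalings and filters, DESeq2 1.42.0, limma 3.58.1 (voom), a minimum change, the replicate number as a block, and leaving out each library. Libraries of a group differed by more than sampling noise, at a chi-square per gene of 2.85 to 9.23. The members, role groups and other lists were chosen with earlier results of these data known. Library values are given for called members that differ by at least 1 on the log2 scale and for up to 3 members of each role group by smallest p, levels for the 10 highest members, and of other lists up to 4 members by smallest p; values of other members were added where a result turns on them, and some genes of these lists are not reported here. Promoter sequences are from RefSeq (GRCh38.p14).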

Additional observations from a re-analysis of the deposited data

How the results depend on the processing

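Of the 22 called TRIM genes, 16 kept their call and direction under all 14 other settings (9 higher, 7 lower), and no called member changed sign. The sign changed for 4 uncalled members, for causes not tested. TRIM26 was at 0.00354 with DESeq2 size factors, 0.00829 with library size alone, 0.0467 with upper quartile scaling and 0.00038 with a filter of 1 CPM in 3 libraries, and TRIM16L at 0.0117 with upper quartile scaling. Without each library in turn, the log2 fold change was -0.0771 to 0.0312 for TRIM16L, -0.0572 to 0.0638 for TRIM26, -0.169 to 0.00055 for TRIM33 and -0.0259 to 0.22 for TRIM36. TRIM31 had no value under the 1 CPM filter. The 6 called members that lost the call under at least 1 setting were TRIM11, TRIM24, TRIM38, TRIM44, TRIM56 and TRIM59, and 6 uncalled members, TRIM3, TRIM7, TRIM13, TRIM25, TRIM27 and TRIM45, were called under at least 1; the causes were not tested. A minimum change of 1 on the log2 scale left 3 TRIM genes higher and 0 lower, and 762 and 481 of all tested genes, fewer by construction. Leaving out each library gave 10 to 13 TRIM genes higher and 7 to 12 lower. Over all tested genes it gave 3398 to 3953 higher and 3584 to 4082 lower. The median TRIM log2 fold change was then 0.0776 (without sh-CBX7 replicate 1) to 0.167, and the CBX7 log2 fold change -0.775 to -0.649. DESeq2 called 11 TRIM genes higher and 9 lower, and upper quartile scaling 14 and 7, with the median of all tested genes shifted by 0.0492. With the replicate number as a block, 13 TRIM genes were higher and 10 lower, and 3972 and 4126 of all tested genes; TRIM3 was then called (adjusted p = 0.0497). Same-numbered libraries had correlated deviations of 0.0858, 0.0953 and 0.0378, each the highest for its libraries, a hint from the data and not from the design. The 32 untested members did not pass the low count filter at this depth, so nothing is said on whether they differ between the groups.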

Other observations

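TRIM32, whose exons overlap no other annotated gene, had 0 counts in all 6 libraries, while ASTN2, the gene around it, had 2 to 7 counts in sh-CBX7 libraries and 7 to 11 in sh-Control libraries. CTC-338M12.4, which overlaps 28.5% of the exonic bases of TRIM52 on the opposite strand, had 52 to 60 counts in sh-CBX7 libraries and 28 to 50 in sh-Control libraries.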
